A study of Mus musculus with 28 samples.

Results

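The subject is the set of RNA-seq libraries to which external RNA standards (the ERCC spike-ins) were added: 4 libraries of control cells and 4 libraries of Ssrp1 KD cells, 8 of the 28 samples of the series. They were chosen by their titles, and every one of the 15384 genes with a value in them was used. Both groups were E14 mouse embryonic stem cells (mESCs) transfected with lentiviral vectors, which carried a scramble sequence in the controls and a pair of shRNAs against Ssrp1 in the KD. Puromycin (2 µg/ml) was added 48 h after transfection for a further 24 h, so every library comes from cells that had taken up a vector and were under selection, and the RNA was total RNA depleted of ribosomal RNA and read with its strand kept. Each group is described as 4 biological replicates of 1 cell line. The labels and methods do not say whether the spike-ins were added per cell or per mass of RNA.

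SSRP1 and SUPT16 form FACT, a histone chaperone that travels with RNA polymerase II, loosens the nucleosome in front of it and helps to restore it behind. Scaling to library size sets the libraries to a like total and so reports how the share of each transcript changed. Scaling to an added standard keeps differences in total and reports each transcript against the standard. The comparison therefore asks which transcripts fell or stayed level while most rose against the spike-ins, and which rose by more than most.

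The KD libraries were higher as a whole on the spike-in scale. The median gene had a spike-in-scaled value of 14.6, 13.5, 15.4 and 19.6 in control replicates 1 to 4 and of 19.8, 40.2, 34.8 and 32.5 in the KD replicates. KD replicate 1 stood next to control replicate 4, and the other 3 KD libraries were above every control. On the library-size scale the median gene lay between 21.5 and 23.0 in all 8. The log2 ratio of the spike-in scale to the library-size scale was -0.51 ± 0.25 (SD, n = 4) in the controls and 0.51 ± 0.44 (SD, n = 4) in the KD, a difference of 1.03 or 2.04-fold, with no overlap (two-sided p = 0.0286 in an exact permutation test, which can give no smaller value with 4 libraries a group). The difference was 1.24 without KD replicate 1.

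Sequencing depth moved with this shift. The control libraries held 4602278 to 6680919 reads in genes and the KD libraries 9433193 to 19856032, with KD replicate 1 the lowest of the KD. The means differed 2.98-fold. In contrast, 1 read was worth 0.109 ± 0.0147 on the spike-in scale in the controls and 0.104 ± 0.0115 in the KD (SD, n = 4 each), a ratio of 0.947. The sum of spike-in-scaled values per library was higher in the KD too, from 503414 to 782336 in the controls and from 1073300 to 2156000 in the KD, a ratio of 2.80 between the means. More RNA per cell, more cells behind a fixed amount of standard, and deeper sequencing of the KD libraries therefore cannot be told apart here, nor can fewer cells of a type and less RNA per cell for any single transcript. All rises against no change carry this shift. Fold changes are therefore also set against the bulk, which is the median fold change of all genes, and checked on the library-size scale.

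**Figure D1:**
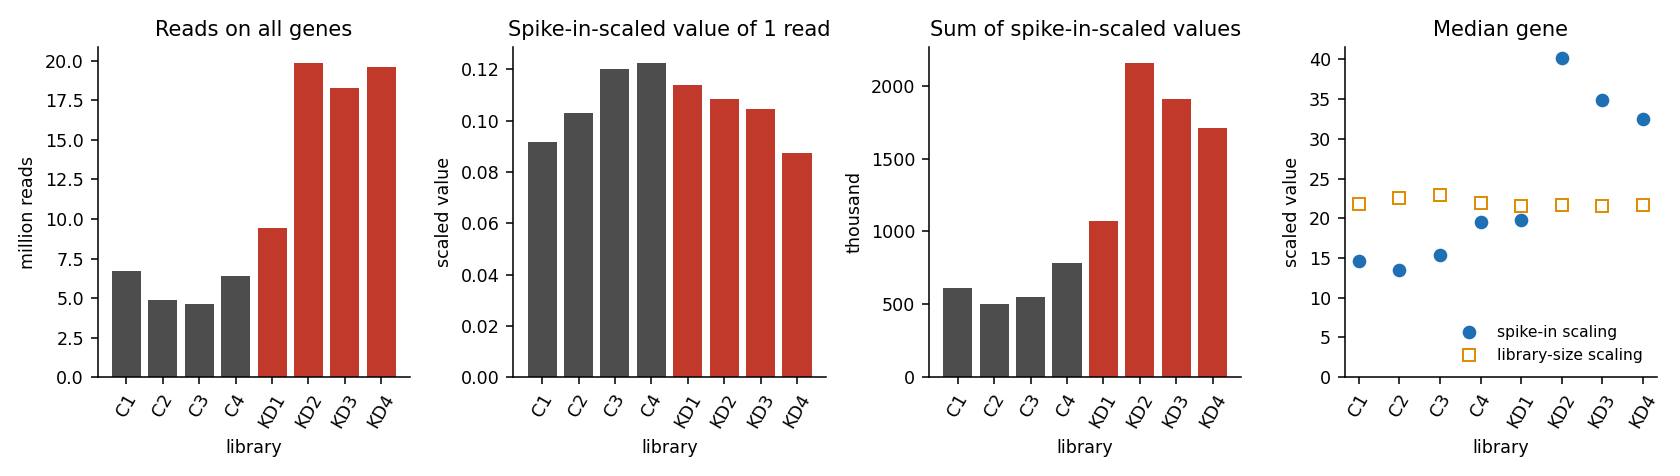
The panels plot, for each of the 4 control and 4 KD libraries, the reads in genes, the spike-in-scaled value of 1 read, the sum of spike-in-scaled values and the value of the median gene in both scalings. Reads and sums are higher in the KD, 1 read is worth between 0.0872 and 0.122 in all 8 libraries, and the median gene runs from 13.5 to 19.6 in the controls and from 19.8 to 40.2 in the KD in the spike-in scaling, while all 8 libraries lie between 21.5 and 23.0 in the library-size scaling.

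The targeted gene was lower in every library labelled KD. Ssrp1 (chr2:85037201-85047111, mm10), the DNA-binding subunit of FACT, had values of 175.2, 137.5, 149.3 and 202.1 in the controls and 22.2, 49.0, 40.2 and 43.5 in the KD. The groups were far apart, at 166 ± 28.8 and 38.7 ± 11.6 (SD, n = 4 each). The log2 fold change was -2.13 (SE 0.29), or 4.37-fold lower, and -3.15 on the library-size scale. The adjusted p was 1.91e-12 (limma with Benjamini-Hochberg) and 0.00253 with the gene's own spread in place of the moderated one. Supt16, the partner subunit, had 232.4, 183.6, 198.4 and 291.7 in the controls and 487.4, 890.4, 818.9 and 749.7 in the KD. It rose by 1.69 on the log2 scale, 0.66 on the library-size scale, so the mRNAs of the subunits moved apart.

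The cells had the markers of embryonic stem cells. All 8 ES cell markers had a value, with a sum of 1026 to 1452 in the controls and 4533 to 9220 in the KD. Markers of other cell types had lower sums. Fibroblast markers had a value for 6 of 8 (Lum and Dcn had none) and sums of 43.2 to 62.6 in the controls and 20.0 to 47.3 in the KD. Blood markers had a value for 2 of 4 (Ptprc and Tal1 had none), with sums of 5.31 to 8.55 and 6.49 to 15.0. Neuronal markers had a value for 3 of 4 (all but Dcx), with sums of 69.1 to 102 and 238 to 487, endoderm markers for 4 of 5 (all but Foxa2), with sums of 23.6 to 42.2 and 9.44 to 24.4, and trophectoderm and epithelial markers for 4 of 6 (all but Elf5 and Krt5), with sums of 61.8 to 113 and 33.8 to 72.7. The part of these cells in the results was not tested.

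Most genes had a higher level in the KD against the spike-ins. Of the 15384 genes, 7394 (48.1%) were higher in the KD and 1082 (7.03%) lower, taking a log2 fold change above 1 in size with an adjusted p below 0.01 (limma on log2(value + 0.5), Benjamini-Hochberg over all genes). The bulk was at 0.95 on the log2 scale or 1.94-fold. Values were spread widely around it, from -1.24 at the 5th percentile to 0.15 and 1.498 at the quartiles and 2.17 at the 95th percentile, and 78.1% of genes had a positive value. The groups did not overlap for 7061 of the 7394 and 1031 of the 1082. Among all 15384 genes, called or not, the KD lay wholly above the controls for 7508 and wholly below for 1410. Measured from the bulk by the same thresholds, 1458 genes (9.48%) rose beyond it and 3225 (21%) were below it. This test took the median as fixed and kept the standard error of the fold change against no change. Its p-values therefore do not measure the spread of a gene around the bulk. Against the median of the genes with the higher mean values 442 were beyond, and without the lowest 25% of genes by mean value 681 were beyond and 1455 below. The 3225 genes below the bulk held all 1082 genes that fell and 2143 that were not called lower against no change.

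The library-size scale served as a check. On it the median gene was at -0.03, 1242 genes (8.07%) were higher and 3163 (20.6%) lower. Rises made up 87.2% of the calls on the spike-in scale and 28.2% on the library-size scale. Every one of the 1082 falls of the spike-in scale was also a fall on the library-size scale, and all 1242 rises of the library-size scale were also rises on the spike-in scale. The scales differed for 6152 genes that were higher on the spike-in scale alone and 2081 that were lower on the library-size scale alone, and 0 genes were called in opposite directions. Of the 1458 genes beyond the bulk, 1233 were higher on the library-size scale, and of the 3225 below it, 3115 were lower there. Both scales come from the same reads, so these overlaps are no independent evidence.

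The KD libraries did not weigh alike. Against the mean of the controls, the median gene was at 0.34 in KD replicate 1 and at 1.33, 1.12 and 1.04 in replicates 2 to 4. Replicate 1 had 7523 genes above every control and 4224 below, while the others had 11080 to 11998 above and 1561 to 2110 below. Without it, all 7394 rises were called again among 8607, and 832 of the 1082 falls among 834. The spread between replicates on the spike-in scale was largely such a shift of whole libraries, with a median residual SD of 0.38 against 0.14 on the library-size scale, and limma gave nearly every gene the same standard error of 0.29. With each gene's own spread instead, an alternative added after the data were seen, 6104 genes rose, 707 fell, 376 were beyond the bulk and 1738 below it at an adjusted p below 0.01. At an adjusted p below 0.05 these counts were 7380, 1053, 1433 and 3075.

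**Figure D2:**
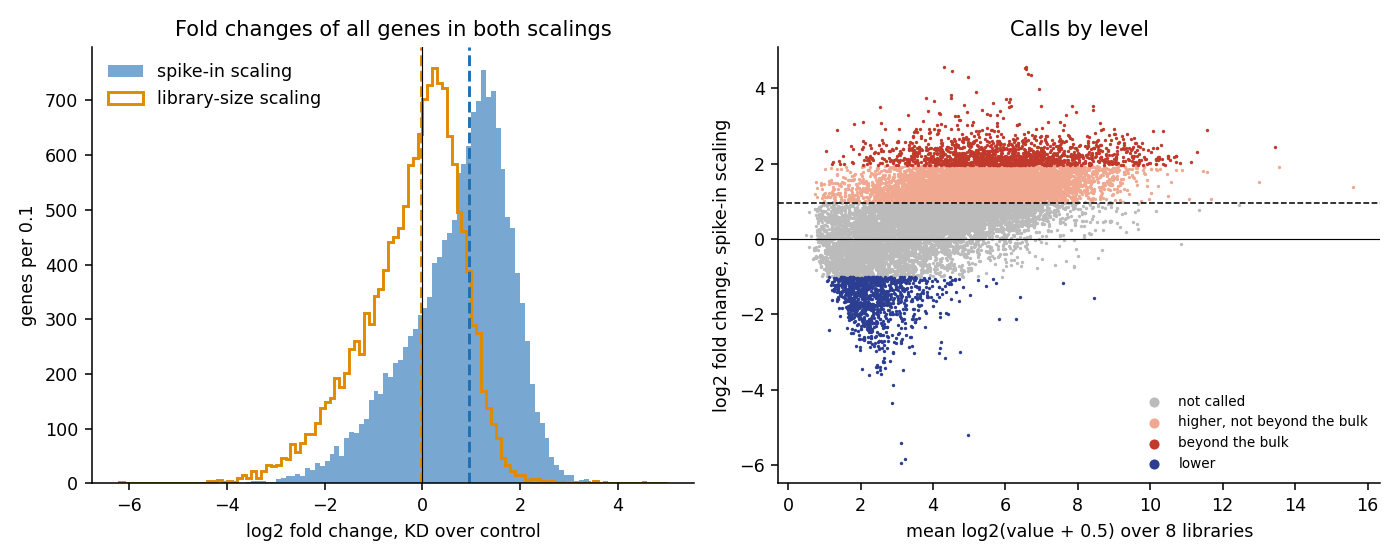
The left panel is a histogram of log2 fold changes (KD over control) of the 15384 genes in the spike-in scaling (filled) and the library-size scaling (line). The right panel plots the spike-in fold change of each gene against its mean log2(value + 0.5), coloured by call, with a solid line at no change and a dashed line at the bulk of 0.95. The spike-in distribution is shifted to the right of the library-size distribution, whose median is -0.03, and the genes called lower lie mostly at low mean values.

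Short noncoding RNAs stood at both ends, and their sequences are shown because each has close copies in the genome, which bears on what the values count. The sequences were read from GRCm38 (mm10). U3, a small nucleolar RNA, guides early cuts of the ribosomal RNA precursor. Rnu3b1 (chr11:87443237-87443451), Rnu3b2 and Rnu3b3 have the same 215 bases, and Rnu3b4 (chr11:87462286-87462503, plus strand) has these and 3 more, in capitals. In U1 (Rnu1a1, chr11:87422867-87423030, plus strand) capitals mark the bases that pair with the 5′ splice site, and in U2 (Rnu2-10, chr11:101658238-101658424, plus strand) those that pair with the branch point. The 4.5S RNA (Rn4.5s, chr6:47654921-47655094, minus strand), a rodent RNA made by RNA polymerase III from many gene copies, has a B1 repeat-like start.
Rnu3b4: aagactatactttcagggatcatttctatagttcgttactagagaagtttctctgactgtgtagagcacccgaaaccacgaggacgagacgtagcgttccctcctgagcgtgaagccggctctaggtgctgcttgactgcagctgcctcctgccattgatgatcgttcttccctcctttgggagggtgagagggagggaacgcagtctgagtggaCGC
Rnu1a1: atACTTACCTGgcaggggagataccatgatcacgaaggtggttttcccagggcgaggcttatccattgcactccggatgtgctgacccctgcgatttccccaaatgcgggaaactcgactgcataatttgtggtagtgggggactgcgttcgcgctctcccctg
Rnu2-10: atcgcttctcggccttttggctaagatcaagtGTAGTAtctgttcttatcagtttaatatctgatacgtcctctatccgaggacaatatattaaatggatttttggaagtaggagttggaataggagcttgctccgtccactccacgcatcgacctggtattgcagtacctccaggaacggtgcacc
Rn4.5s: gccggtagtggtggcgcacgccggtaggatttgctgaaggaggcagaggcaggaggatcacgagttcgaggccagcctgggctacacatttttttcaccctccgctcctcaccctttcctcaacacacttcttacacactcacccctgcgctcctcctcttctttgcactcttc

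The U3 values were high together. Rnu3b1 had 26.8, 14.3, 10.9 and 29.1 in the controls and 278.4, 611.1, 514.5 and 459.9 in the KD. The log2 fold change was 4.54 (SE 0.29, 23.3-fold) and 3.53 on the library-size scale. All 5 U3 genes were beyond the bulk, between 4.39 and 4.55, but Rnu3b1 to Rnu3b4 share their sequence, so their reads cannot be assigned to 1 copy and these 4 values are not independent. The sequence of Rnu3a was not compared. Rnu1a1 had 6.31, 5.56, 4.09 and 6.12 in the controls and 57.3, 124.5, 78.2 and 87.4 in the KD, a log2 fold change of 3.82. Rnu2-10 had 10.9, 7.62, 5.65 and 13.1 against 98.2, 171.1, 154.1 and 141.5, a log2 fold change of 3.89. U1 and U2 are the spliceosomal RNAs that find the splice site and the branch point. How fully the libraries held RNAs as short as these genes (164 and 187 bases) was not tested. Of 13 genes annotated as snRNA, 12 rose and 10 were beyond the bulk, and 5 of these are the U3 genes, which the annotation files under snRNA.

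The other small RNAs moved less. Of 51 box C/D and H/ACA RNAs, which guide chemical marks on ribosomal and spliceosomal RNA, 42 rose and 12 were beyond the bulk, with a median of 1.37. Of 8 others, RNA parts of enzymes such as RNase P among them, 7 rose and 4 were beyond the bulk, with a median of 1.98. With the 5 U3 genes these made a list of 64 small nuclear and nucleolar RNAs, which leaves out Rnu1a1 and Rnu2-10. The list had 54 rises and 0 falls and a median of 1.49, against 0.95 over all genes. The 4.5S RNA went the other way. Rn4.5s had 36.6, 48.0, 49.1 and 58.3 in the controls and 4.21, 9.77, 6.17 and 8.02 in the KD (log2 fold change -2.72, SE 0.29, 6.61-fold lower).

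The largest falls among genes above the lowest 25% of mean value were those of single genes of many kinds. Flg, which codes for filaggrin of the outer skin, had 43.5, 48.4, 68.4 and 68.4 in the controls and 1.02, 0, 1.99 and 1.13 in the KD. With 1 KD library at 0, its log2 fold change of -5.41 depends on the added 0.5. Krt15, a keratin of basal epithelial cells, had 34.6, 22.5, 24.5 and 41.4 in the controls and 1.37, 2.61, 2.09 and 3.14 in the KD. It fell by 3.48 on the log2 scale. Ets1, an ETS family transcription factor, had 54.2, 38.1, 41.3 and 76.8 in the controls and 4.21, 6.73, 5.96 and 6.45 in the KD, a log2 fold change of -3.03 (8.17-fold lower). Its KD values were close to each other while control replicate 4, the highest control for the median gene too, was the highest of the controls.

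Duxf3, a homeobox gene of the 2-cell embryo that belongs to a repeated family, had 51.0, 71.1, 96.6 and 93.5 in the controls and 5.006, 13.7, 9.94 and 9.86 in the KD (log2 fold change -2.99). Csmd2 had 19.8, 28.2, 31.1 and 35.2 in the controls and 0.683, 1.63, 1.88 and 1.92 in the KD (-3.87). The 12 largest falls and the 12 largest rises were picked among called genes whose groups did not overlap, so that separation was set by the choice. Others of the 12 largest falls were Dnah1, an axonemal dynein heavy chain (-2.85), Apob, the apolipoprotein of low-density particles (-2.77), Wdfy4 (-2.72), Pkd1l2 (-2.70) and Speer4d (-2.66). In each of those named, the unmoderated fit gave an adjusted p of 0.00235 to 0.00245 (limma with Benjamini-Hochberg, no moderation). On the library-size scale their log2 fold changes ran from -3.59 for Speer4d to -6.13 for Flg. Fold changes of genes in general are lower on that scale by about the bulk, so this is no further support.

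**Figure D3:**
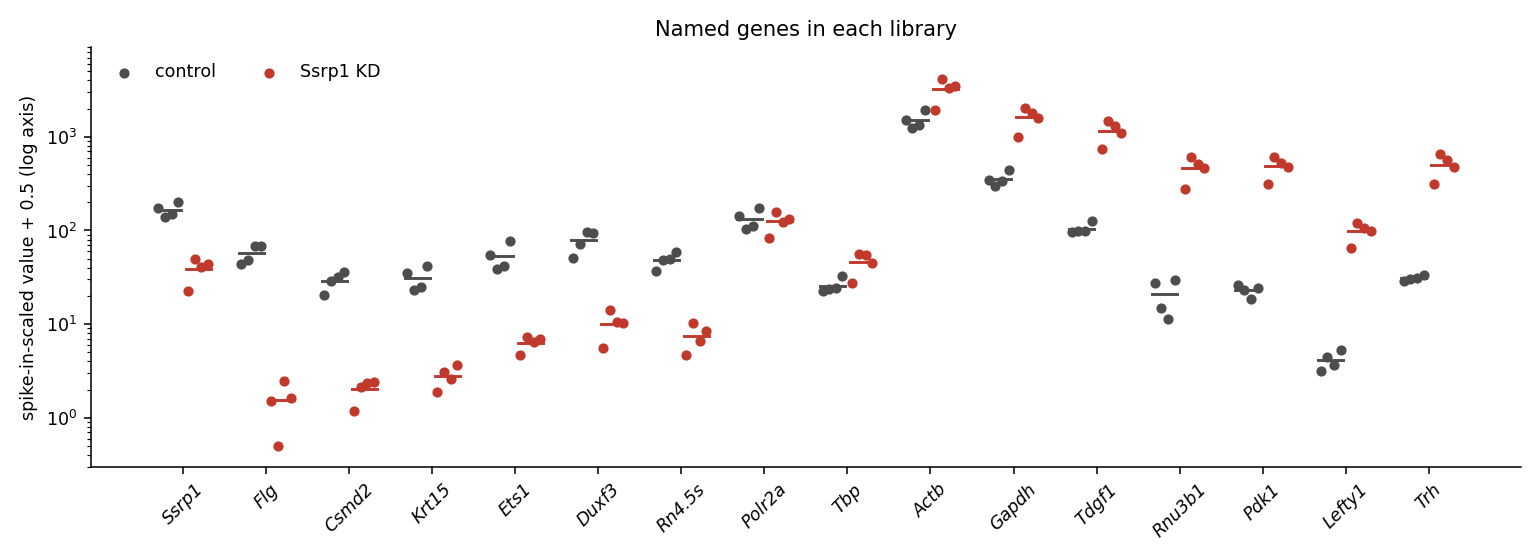
Each point is the spike-in-scaled value (plus 0.5, log axis) of a gene in 1 library, with 4 control and 4 KD libraries per gene and a bar at the group mean. From left to right the genes run from those that fell, Ssrp1 and Flg to Rn4.5s, through Polr2a, Tbp and Actb, whose groups overlap, to those that rose, such as Lefty1 and Trh.

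Epithelial genes were found among both the falls and the rises. Of 23 epithelial and keratin genes, 5 fell, 4 rose and 8 were below the bulk, and the median was 0.23. Counts of this and the other lists stand against 48.1% rises, 7.03% falls, 9.48% beyond and 21% below the bulk over all genes. Besides Flg and Krt15, Muc5b, a gel-forming airway mucin, fell by 4.35 on the log2 scale and Krt14, the basal keratin, by 2.79. On the other side Epcam (2.21), the cell adhesion molecule that mESCs express, and Cldn7 (2.01), a tight junction protein, were beyond the bulk.

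Matrix genes split by kind. Of 10 fibrillar collagens and fibroblast matrix genes, 5 fell, 0 rose and 9 were below the bulk, with a median of -1.02. Fbn2 (-2.34) and Fbn1 (-1.78), which build microfibrils, and the collagens Col3a1 (-1.77) and Col1a1 (-1.62) had the largest falls. Of 12 laminins, type IV collagens and partners, the basement membrane genes, 0 fell, 3 rose and 2 were below the bulk, with a median of 0.69. Together the 22 matrix genes had 5 falls, 3 rises and a median of -0.02 (over all genes 7.03% fell and 48.1% rose). A longer list of fibroblast markers overlaps this list, and of 7 with a value 3 fell, 0 rose and the median was -0.93. The methods name gelatin-coated plates and no feeder cells. The part of fibroblasts in the matrix values was not tested.

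Genes of the germ layers were low and mostly below the bulk. Of 15 genes listed for mesoderm and endoderm, 2 fell, 0 rose and 9 were below the bulk (7.03%, 48.1% and 21% over all genes), with a median of -0.52. The list counts Acer1, a ceramidase gene, under endoderm. Kdr, the VEGF receptor of early mesoderm, had 5.58, 8.65, 12.9 and 10.5 in the controls and 2.05, 2.39, 2.82 and 1.92 in the KD (log2 fold change -1.78). Sox7, a primitive endoderm factor, had a log2 fold change of -1.41 and was no longer called with a pseudocount of 2 (-0.89). Sox7 was the lower of the pair in level, at 2.88 to 5.88 in the controls and 0.683 to 1.74 in the KD. Gata6, which specifies primitive endoderm, had 13.4, 15.7, 16.96 and 23.6 against 4.89, 12.8, 10.2 and 9.59, below the bulk at -0.90 but not called lower unless control replicate 1 (-1.01) or KD replicate 2 (-1.07) was left out. Of the 3 with a value in another, longer list of blood markers, Cd34 fell (-1.42) and Spi1 (-0.30) was below the bulk, with a list median of -0.30.

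Of 19 neural genes, 6 rose, 1 fell, 5 were beyond the bulk and 6 below it, with a median of 0.59 (over all genes 48.1% rose, 7.03% fell, 9.48% were beyond and 21% below the bulk). Tubb3, the neuronal beta-tubulin, had 17.3, 21.7, 24.8 and 31.6 in the controls and 98.3, 210.9, 166.4 and 164.7 in the KD (log2 fold change 2.70). Mapt (2.54), the tau protein, Stmn2 (2.06), a microtubule destabiliser, and Otx2 (2.15), a forebrain and epiblast factor, were beyond the bulk as well. Elavl4, an RNA-binding protein of neurons, fell by 1.22, from 2.29 to 6.00 in the controls to 0.683 to 3.26 in the KD, with overlap between the groups, and was no longer called without KD replicate 1 (-0.94) or with a pseudocount of 2 (-0.81). Pax6 (-0.54), a neural progenitor factor, was below the bulk with overlapping groups.

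Few or no genes could be shown to stay level within narrow bounds on the spike-in scale. A gene was to be counted as flat when the 95% interval of its log2 fold change lay within 0.5 of no change, and 0 genes met this in limma, where the median half-width of the interval was 0.56, wider than the margin. By the same bounds the count was 0 in edgeR and 4 in DESeq2 on recovered reads, 346 with a pseudocount of 2, 34 without moderation and 216 without KD replicate 1, and 11549 genes had an unadjusted limma p below 0.05 against no change. On the library-size scale, where the half-width was 0.21, 3714 genes were flat. Likewise 0 genes could be bounded within 0.5 of the bulk in limma, against 39 in DESeq2, 21 without moderation, 93 with a pseudocount of 2 and 1025 without KD replicate 1. Genes near no change can therefore be named by their values, and 628 had a log2 fold change within 0.1 of it, but the spread between the libraries was too wide to show that they were level.

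Polr2a was such a gene. It codes for the largest subunit of RNA polymerase II and had 143.5, 102.0, 109.8 and 172.4 in the controls and 82.7, 157.1, 124.0 and 133.6 in the KD. The groups overlapped, with means of 131.9 ± 32.4 and 124.4 ± 31.1 (SD, n = 4 each), and KD replicate 1 alone lay under the controls. The log2 fold change of -0.09 was below the bulk. The sign changed when control replicate 4 (0.05) or KD replicate 1 (0.09) was left out. Most of the other Polr2 genes were higher. Of the 13 genes Polr2a to Polr2m 11 rose, with a median of 1.82, and the small subunits Polr2e (2.39), Polr2h (2.37) and Polr2i (2.24) were beyond the bulk. RNA polymerase I subunits and nucleolar factors had 13 rises among 17 and a median of 1.42, with Polr1c (2.22) and Npm1 (2.10) beyond the bulk. Among 24 elongation factors that work beside FACT, 19 rose and 0 fell, with a median of 1.35, and Supt4b (2.18), a subunit of the DSIF elongation factor, was beyond the bulk. With the subunits of FACT the list had 20 rises and 1 fall among 26 genes.

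Transcripts of the mitochondrial genome had a lower median than the nuclear ones that code for partners in the same complexes. Of 13 mitochondrial mRNAs 2 rose and 0 fell, between -0.81 and 1.24, with a median of 0.53 (-0.49 on the library-size scale). ND4L, a subunit of complex I, had 29.9, 38.5, 51.6 and 57.9 in the controls and 27.4, 23.7, 21.1 and 25.6 in the KD, below the bulk at -0.81. All 69 nuclear genes listed for the respiratory chain rose, with a median of 1.85, and 30 were beyond the bulk. The list is not complete. Grouped by symbol, 42 of 43 Nduf genes and 21 of 23 nuclear Cox genes rose. Cox4i1, a subunit of complex IV, had 127.9, 115.0, 126.5 and 173.9 in the controls and 602, 1245, 1105 and 975.8 in the KD (log2 fold change 2.82). The groups of Cox4i1 were far apart while those of ND4L nearly touched. The medians were 1.84 for complex I, 1.81 for complexes II to IV and 1.90 for ATP synthase.

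Genes induced by p53, some of which arrest the cycle or kill the cell, were on balance under the bulk. Of 21, 6 rose, 1 fell and 7 were below the bulk (48.1%, 7.03% and 21% over all genes), with a median of 0.61. Mdm2, the ligase that turns p53 over, had 480, 351.1, 377.3 and 599.2 in the controls and 199.6, 398.4, 353.8 and 346 in the KD, with overlap, and was below the bulk at -0.49. Fas, a death receptor, fell by 1.71, with no overlap. Perp (-0.76) and Plk2 (-0.59) were below the bulk and not called lower.

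Genes of the 2-cell-like state, a rare state of mESC cultures, were near no change. Of 17, 1 rose, 1 (Duxf3) fell and 5 were below the bulk (48.1%, 7.03% and 21% over all genes), with a median of 0.12. Zscan4b had 62.2, 53.04, 66.2 and 93.0 in the controls and 35.2, 85.9, 71.5 and 68.02 in the KD. The groups overlapped, with KD replicate 1 alone under the controls (log2 fold change -0.12). Zfp352 (-0.48) and Tdpoz3 (-0.25) were also below the bulk. Members of these families have near-identical copies, so the values of single members are uncertain.

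Imprinted genes, expressed from 1 parental allele, lay mostly under the bulk, with 5 of 18 above it. Long noncoding RNAs were spread around it, with 7 of 14 above. Of 18 imprinted genes 3 rose, 2 fell, 2 were beyond the bulk and 3 below it, with a median of 0.66. The shares over all genes were 48.1%, 7.03%, 9.48% and 21%. The paternally expressed Dlk1 (-1.95) and Plagl1 (-1.01) fell, while the maternally expressed Cdkn1c (2.33), a cell cycle inhibitor, and Phlda2 (2.25) were beyond the bulk. Of 14 long noncoding RNAs 6 rose, 1 fell and 4 were below the bulk, with a median of 0.88. Peg13 fell by 1.78, and Meg3 (-0.40), Kcnq1ot1 (-0.19) and Mirg (-0.16) were below the bulk. Kcnq1ot1 had 188.5, 168.8, 174.1 and 244.7 against 108.4, 191.5, 197.5 and 193.0, so that KD replicate 1 alone lay under the controls. As a list with nearly the median of all genes, the zinc finger genes Zfp900 to Zfp999 had 13 rises and 0 falls among 32 and a median of 0.90, and 1 of them, Zfp964 (-0.20), was below the bulk.

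Genes in common use as references did not share 1 behaviour. Of 14, 12 rose, 8 were beyond the bulk and 1, Polr2a, was below it, with a median of 1.99. Actb, cytoplasmic actin, had 1521, 1254, 1331 and 1941 in the controls and 1910, 4105, 3342 and 3470 in the KD. KD replicate 1 overlapped the controls, and the log2 fold change of 1.05 was close to the bulk and to the threshold. Its call was lost without control replicate 2 (0.97) or 3 (0.997), and without KD replicate 2 (0.91) or 4 (0.995). Tbp, the TATA-binding protein, had 22.1, 23.4, 23.6 and 31.9 against 27.1, 55.2, 54.4 and 44.5 (0.79, not called, and 1.02 and called without KD replicate 1). On the library-size scale Actb was at 0.03 and Tbp at -0.22. Gapdh had 347.9, 301.4, 333.2 and 439.0 in the controls and 999.2, 2043, 1809 and 1589 in the KD, a log2 fold change of 2.14, or 1.12 on the library-size scale.

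Among the genes beyond the bulk were inhibitors of Nodal signalling. Nodal is a TGF-beta ligand that patterns the early embryo, and Lefty1 and Lefty2 are its secreted inhibitors. Lefty1 had 2.65, 4.02, 3.13 and 4.77 in the controls and 65.1, 119.1, 106.8 and 99.4 in the KD. The log2 fold change was 4.56 (SE 0.29, 23.6-fold) and 3.59 on the library-size scale. Lefty2 had 6.22, 7.21, 6.13 and 6.86 against 93.6, 189.3, 153.3 and 139.2 (4.30). Tdgf1, the Nodal co-receptor, had 95.4, 98.6, 99.0 and 124.2 against 741.7, 1483, 1313 and 1084 (3.42). The rest of the pathway was closer to the bulk. Of its 14 genes 10 rose, 3 were beyond the bulk and 1 below it, with a median of 1.47, and Smad3, which carries the signal to the nucleus, was the member below it at -0.57, with overlapping groups.

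Genes of glucose use were also among the furthest from the bulk. Pdk1, a mitochondrial kinase that inhibits pyruvate dehydrogenase, had 25.4, 22.6, 18.2 and 24.1 in the controls and 313.3, 613.6, 527.8 and 476.7 in the KD (log2 fold change 4.36, 20.5-fold). All 15 glycolytic enzymes rose and 13 were beyond the bulk, with a median of 2.35. Pfkp (3.53), a phosphofructokinase, Tpi1 (3.52), triosephosphate isomerase, and Pgk1 (2.93), phosphoglycerate kinase, were the furthest named. Of 15 genes of the hypoxia response 12 rose, 9 were beyond the bulk and 1, Car9, a carbonic anhydrase, was below it at -0.06, with a median of 2.14. Bnip3, a mitophagy receptor, rose by 3.60. The whole list of 30 had a median of 2.32, with 22 beyond the bulk.

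All 22 genes of cholesterol synthesis and its control rose and 11 were beyond the bulk, with a median of 1.95. Insig1, which holds back the pathway's activator, was at 3.03, and the enzymes Idi1, Fdps and Pmvk at 2.87, 2.68 and 2.56. Targets of ATF4 in the integrated stress response had 12 rises and 0 falls among 16 and a median of 1.40. The 5 beyond the bulk included the serine and one-carbon enzymes Phgdh (2.91), Psat1 (2.61), Shmt2 (2.61) and Mthfd2 (2.13). The other targets were nearer the bulk, so the list did not move as one.

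Pluripotency genes rose almost throughout. Of 28, 27 rose, 0 fell and 17 were beyond the bulk, with a median of 2.09. Prdm14, a repressor that keeps the naive state, had 7.13, 9.48, 7.34 and 9.30 in the controls and 45.9, 102.2, 90.8 and 86.6 in the KD (log2 fold change 3.16). Dppa3 (2.93) and Tcl1 (2.87), the latter a cofactor of AKT, were beyond the bulk too. The 16 genes listed as transcription factors, with Tcl1 counted among them, had a median of 2.10 and the 12 other stem cell genes one of 2.07. Trh, the precursor of thyrotropin-releasing hormone, had 28.1, 29.9, 30.4 and 32.8 in the controls and 313.8, 660.7, 563.3 and 479.9 in the KD (3.99). Pla2g10, a secreted phospholipase, was at 3.74.

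Histone genes made up the list with the highest median. Of 61 core histone genes of the replication-dependent type, 60 rose, 0 fell and 58 were beyond the bulk, with a median of 2.43 (1.41 on the library-size scale). Hist3h2ba had 5.40, 6.28, 4.57 and 6.98 in the controls and 52.3, 105.8, 102.2 and 81.5 in the KD (3.73), and Hist1h4f was at 3.30. These genes are near-identical to each other in their coding part, so the split between members is uncertain. All 7 linker histone genes were beyond the bulk, with a median of 2.39, and 5 of 8 genes of replication-independent variants were, with a median of 2.21. H2afz, which codes for H2A.Z, had 33.8, 34.1, 33.1 and 46.6 against 178.3, 346.7, 315.9 and 253.3 (2.84). Replication-dependent histone mRNAs lack a poly(A) tail and were read here because the libraries were made from total RNA.

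Genes of protein synthesis and turnover rose as well. Of 85 cytosolic ribosomal protein genes 83 rose, 59 were beyond the bulk and 1, Rpl10l, a testis-type copy, was below it at -0.36, with a median of 2.10. Fau (3.11), Rps21 (3.04), Rpl8 (2.87) and Rpl22l1 (2.87) were the furthest. The medians were 2.04 in the large and 2.15 in the small subunit. Processed pseudogenes share sequence with many of these genes, so single values are uncertain. Of 32 proteasome subunits 31 rose but 3 were beyond the bulk (48.1% and 9.48% over all genes), with a median of 1.63. Psmb6 (3.54), a catalytic subunit, stood apart from the others, of which Psmb5 (2.02) and Psmd13 (2.01) were next. Chaperones had 14 rises among 15 and a median of 1.75, with Hspa5 (2.39), the chaperone of the endoplasmic reticulum, furthest.

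Of 21 immediate early genes 12 rose, 1 fell, 4 were beyond the bulk and 2 below it, with a median of 1.21. The shares over all genes were 48.1%, 7.03%, 9.48% and 21%. Atf3, a stress-induced factor, had 33.4, 26.6, 20.9 and 39.2 in the controls and 4.10, 14.1, 10.3 and 10.8 in the KD (log2 fold change -1.64), while Egr1 had 3.48, 5.25, 5.17 and 3.79 against 18.3, 29.97, 26.4 and 25.5 (2.37). Ier3 (2.56) and Ier2 (2.32) were beyond the bulk and Jun (-0.71) below it. Of 13 interferon response genes 10 rose, 5 were beyond the bulk and 2 below it, with a median of 1.77. Those beyond it were led by the membrane proteins Ifitm1 (2.66), Ifitm2 (2.40) and Bst2 (2.37), and Irf7 (-0.61) and Ifit2 (-0.15) were below it.

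**Figure D4:**
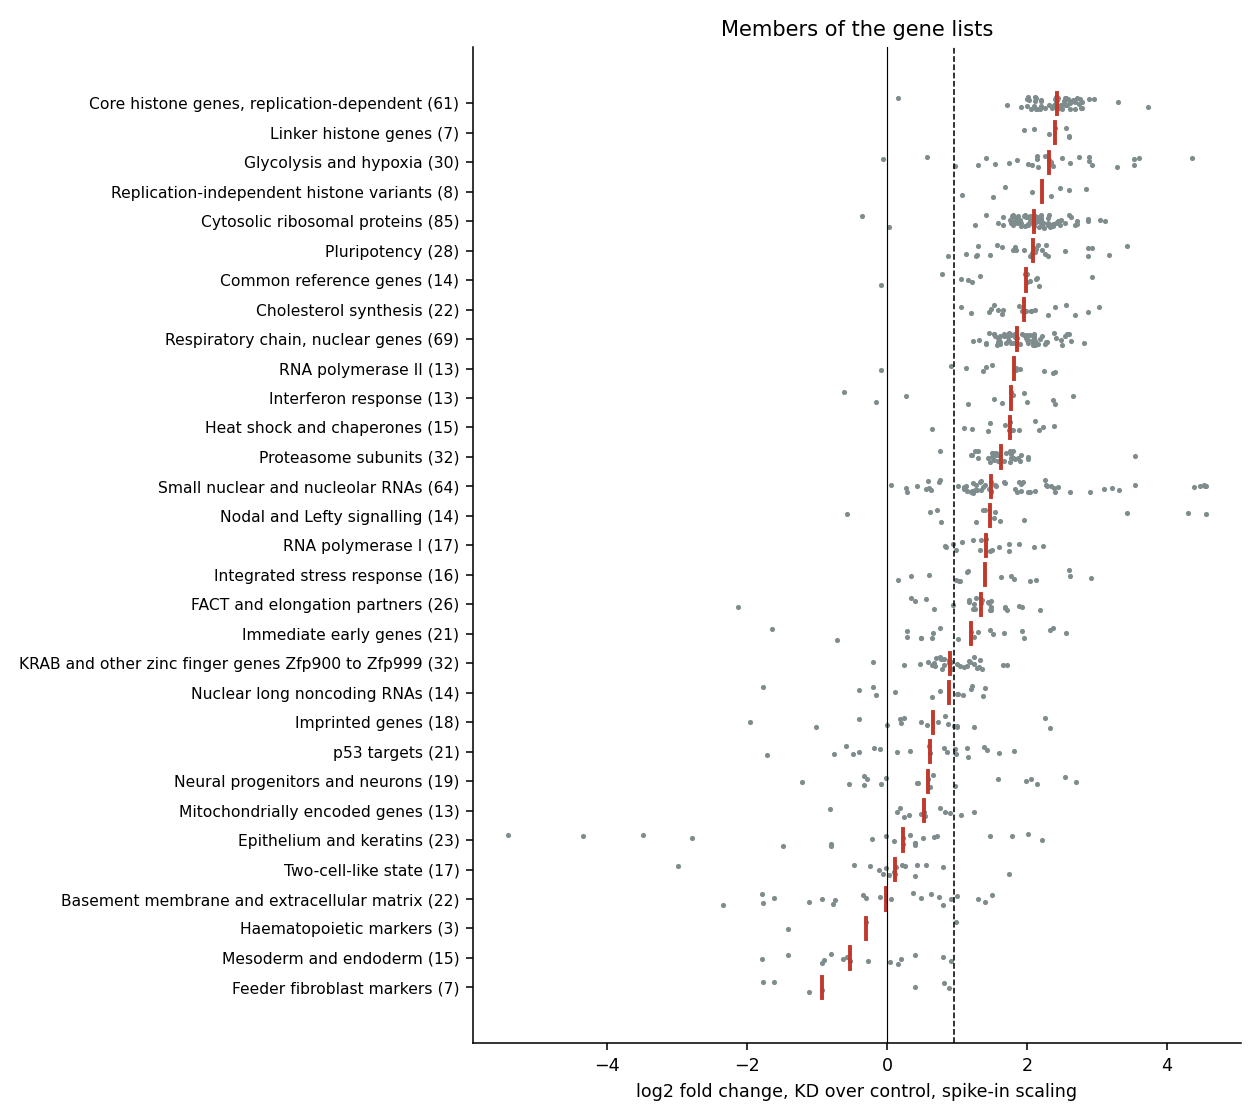
Each grey point is the log2 fold change (KD over control, spike-in scaling) of 1 gene, in 31 lists ordered by their medians (red bars), with the number of genes in parentheses. The solid line is no change and the dashed line the bulk at 0.95. Histone, glycolytic and ribosomal protein lists lie to the right of the bulk (medians 2.43, 2.32 and 2.10), and germ layer and fibroblast lists lie to the left of no change (-0.52 and -0.93).

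On the library-size scale the medians of the lists were lower by about the bulk. They stayed above 0 for the histone lists, ribosomal proteins (1.07), pluripotency (1.07), glycolysis and hypoxia (1.30), reference genes (0.96), cholesterol synthesis (0.93), the nuclear respiratory chain (0.84), RNA polymerase II (0.80), interferon response (0.76), chaperones (0.74), small RNAs (0.71), the proteasome (0.61), Nodal signalling (0.45), RNA polymerase I (0.40), stress response (0.38), elongation (0.34) and immediate early genes (0.21). The sign turned from positive to negative for zinc finger genes (-0.09), long noncoding RNAs (-0.14), imprinted genes (-0.37), neural genes (-0.39), p53 targets (-0.41), mitochondrial mRNAs (-0.49), epithelial genes (-0.78) and the 2-cell-like state (-0.89). Which side of no change these 8 lists lie on thus depends on the scale, while each of them has a median under the bulk on the spike-in scale.

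Length and level differed between the classes of genes. The median exon length was 2690 bases over all genes, 3921 in those that fell and 1508 in those beyond the bulk, with medians of 13 and 6 exons. Per kb of exon the control level of the genes that fell was low, with a median of 2.04 (quartiles 1.53 and 2.89) against 5.71 over all genes and 16.4 for those beyond the bulk. In the KD the medians were 0.646, 12.0 and 82.9 per kb. The deposited table holds only genes above a minimum, so a low gene could enter it through the group in which it was higher, and such a gene had to differ. When the lowest 25% of genes by mean value were left out, 236 genes fell.

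A measure from other libraries gave a like order. In 2 libraries of chromatin-bound RNA of E14 cells, the median was 2.39 reads per kb over all genes, 0.351 in those that fell, 1.41 in those called neither way and 6.36 in those beyond the bulk. Across 10 classes of genes by chromatin-bound RNA, the median log2 fold change was -0.03 and -0.25 in the lowest pair and 1.43 and 1.65 in the highest. Across 8 classes by exon length it went from 1.46 in the shortest genes to 0.57 in the longest, while the share of genes that fell went from 2.08% to 15.5% and the share beyond the bulk from 27.8% to 1.87%. Genes that were long and had little chromatin-bound RNA (the outer of 3 classes in both) had a median of -0.48 and 35.4% fell. Short genes with much of it had a median of 1.71 and 32.9% were beyond the bulk. These are descriptions over genes, which are not replicates, and the part of length or level in the fold changes was not tested.

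Fewer of the genes that fell were the nearest gene to a peak of SSRP1 or SUPT16. The deposited peak lists, which pool 2 ChIP-seq replicates, name the gene nearest to each peak, so occupancy at the gene itself was not measured. For SSRP1 at least 1 peak named 36.02% of all genes, 42.2% of those that rose, 45.3% of those beyond the bulk, 21.2% of those that fell and 24.1% of those below the bulk. For SUPT16 the shares were 18.6%, 22.4%, 25.3%, 7.12% and 10.1%. The order is the same as that of chromatin-bound RNA, and the share at a given level of expression was not tested.

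**Figure D5:**
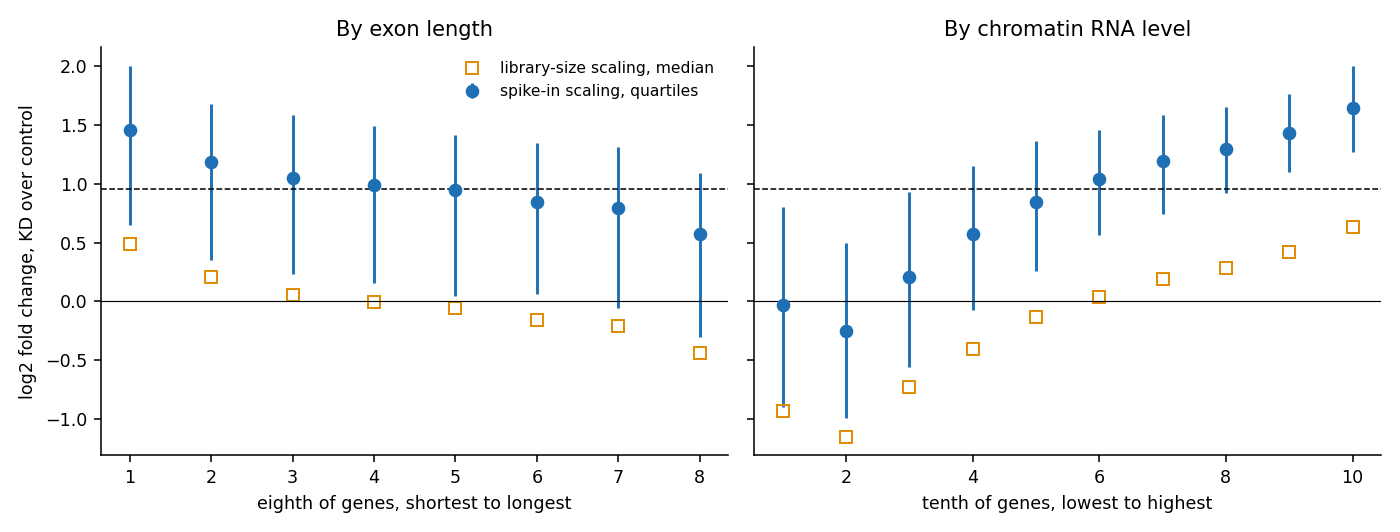
The left panel plots the median log2 fold change (KD over control) of genes in 8 classes of exon length and the right panel in 10 classes of chromatin-bound RNA reads per kb. Circles with bars are medians and quartiles in the spike-in scaling, squares are medians in the library-size scaling, and the dashed line is the bulk. The median falls from 1.46 to 0.57 with length and goes from -0.03 to 1.65 with chromatin-bound RNA.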

How the data were processed

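RNA-seq of 4 control and 4 Ssrp1 KD libraries was used. Reads were aligned by the authors to mm10 with STAR and counted per gene with featureCounts, and genes with a CPM above 1 were kept. The deposited values are signal, reads divided by a factor per library, once from the ERCC spike-ins and once from library size. The labels and methods do not state how the spike-in factor was computed. All values were whole multiples of 1 read (100% within 0.1 read), so reads were recovered (4602278 to 19856032 per library, which sets the counting error only). Chromatin RNA was deposited as raw counts. The STAR version in the submitters' notes is 2.5.1b.

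log2(value + 0.5) was fitted with limma 3.58.1 (trend, group only, R 4.3.3), with Benjamini-Hochberg adjustment over 15384 genes. Genes were called at a log2 fold change above 1 in size and adjusted p below 0.01, against no change or against the median. Alternatives were other pseudocounts, filters and scalings, left-out libraries, and count models of the recovered reads (edgeR 4.0.16, DESeq2 1.42.0). The steps were tested on simulated data. The members and the 31 gene lists were chosen with earlier results of these data known. Genes named are Ssrp1 and Supt16, the 12 largest falls and 12 largest rises with no overlap above the lowest 25% of mean value, and up to 4 called members per list and direction, or the 2 highest where none was called, and the reference genes. The rule's parts for flat genes and genes at the bulk named none, and 1 of the 12 largest falls is not reported here. 143 gene IDs had no symbol. No 2 libraries agreed within sampling noise (chi-square per degree of freedom of 1.88 or more). Deposited tables of the authors' own comparisons (KD against control, NPC against mESC, exon usage), which hold fold changes and p-values, were not used.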

Additional observations from a re-analysis of the deposited data

Results flagged for a closer look

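Of 174 groups of 4 libraries examined for a library far from the other 3 (by the gap to the nearest over the whole range, which chance gives in about 1 group in 20), 5 stood out. Control replicate 4 was the high one in 4 of them, with a spike-in-scaled value of 21.2 for Col1a1, 124.2 for Tdgf1, 46.6 for H2afz and 31.9 for Tbp. The fifth was the depth of KD replicate 1, which at 9433193 reads was below the other KD libraries.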

How the results depend on the processing

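The limits are the spike-in scale itself, which moved with depth, KD replicate 1, and the common standard error. Rises numbered 1242 on the library-size scale and 1239 with TMM factors, and falls 3163 and 3171. Falls numbered 673 with a pseudocount of 2, 236 without the lowest 25% and 707 without moderation. Genes beyond the bulk numbered 681 without the lowest 25%, 442 against the median of the genes with the higher mean values and 376 without moderation, and genes below it 1455 without the lowest 25% and 1738 without moderation. Flat genes numbered 346 with a pseudocount of 2 and 4 in DESeq2. Leaving out 1 library gave 6523 to 8607 rises, 834 to 1264 falls, 1347 to 1467 genes beyond and 2983 to 3357 below the bulk, 0 to 216 flat genes (216 without KD replicate 1), and, on the library-size scale, 1210 to 1316 rises and 3044 to 3331 falls. The scaling difference lay between 0.90 and 1.24 (exact p = 0.0571 without any 1 control and 0.0286 without any 1 KD library). The cause of these changes was not tested. Reversed signs were those of Polr2a (0.048 without control replicate 4, 0.092 without KD replicate 1), Car9 (0.076 without KD replicate 1 and 0.0272 without KD replicate 3, within -0.242 to 0.076 over all libraries left out) and Tbp (-0.22 on the library-size scale). Over the genes named, 909 alternative values kept direction and side of the threshold, 12 passed it, 9 lost it and 5 reversed, and the medians of all 31 lists moved on the library-size scale.

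The replicate numbers did not pair the samples, since deviations of same-numbered libraries correlated at -0.13 to -0.0033 and 0 of 4 correlated best with its own number. With the replicate block, 7389 genes rose, 1082 fell, 1351 were beyond and 3220 below the bulk, and the scaling difference of 1.03 had an exact paired p of 0.125, the smallest 4 pairs allow.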

Other observations

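Families were grouped by gene symbol after the values had been seen, so their counts are descriptions with no test. Of 14 axonemal dynein heavy chains (Dnah), the motors of cilia, 12 fell and 1 rose, with a median log2 fold change of -1.87. Of 11 calcium channel subunits (Cacna) 8 fell and 0 rose, with a median of -2.34. Of 33 collagens 17 fell and 2 rose, with a median of -1.09. Wnt ligands had 4 falls among 11 (median -0.67), integrin alpha chains 5 among 14 (-0.35), Mmp proteases 3 among 11 (-0.69) and Cyp enzymes 5 among 28 (-0.47). Over all genes 7.03% fell and 48.1% rose. The median exon length was 13288 bases for Dnah, and the median control level of these families was between 1.59 and 3.398 per kb.

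Other families had mostly rises. Of 76 mitochondrial ribosomal proteins (Mrpl and Mrps) 73 rose, 0 fell and 20 were beyond the bulk, with a median of 1.76, a median exon length of 1055 bases and 19.3 per kb in the controls. Of 43 complex I genes (Nduf) 42 rose and 18 were beyond the bulk (1.83). Of 23 nuclear complex IV genes (Cox) 21 rose and 6 were beyond the bulk (1.67). Of 9 chaperonin subunits (Cct) 7 rose (1.84), and of 14 inner membrane import genes (Timm) 10 rose (1.88). By type, 572 ncRNA genes had a median of 0.28, with 154 rises and 36 falls, and 14052 protein-coding genes one of 0.98.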
